A study of Mus musculus with 25 samples.

Results

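The quinone and xenobiotic detoxification enzymes described here are 10 mouse genes, namely Nqo1, Cbr1, Cbr3, Akr1b8, Ephx1, Gstm1, Gstp1, Mgst1, Ugdh and Abcc1. They were chosen by symbol, and every probe set annotated to them was taken, which gave 15 probe sets of 45101 on the array and 10 genes of 18193 with a probe set of their own. Gstm1 has 4 probe sets, Mgst1 and Abcc1 have 2 each, and the other genes have 1 each. Where a gene has several, the brightest stands for the gene and the others are described beside it.

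RAW 264.7 cells, a mouse macrophage line, were kept in DMEM with serum and treated for 6 h with hypochlorous acid (HOCl), the chlorinating oxidant that neutrophil myeloperoxidase makes. The doses were 0.14, 0.35 and 0.7 mM, then 1.4, 2.1, 2.8 and 3.5 mM, with 3 arrays each, set against medium with 0 mM HOCl with 4 arrays, 25 arrays in all. The cells came from 1 line, without any stated genetic change, and the design text describes the replicates as biological. Values are log2 signals per probe set, in which the median of every array is 0.

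Of 15 macrophage markers 14 had a mean signal above the 75th percentile of probe sets, the exception being Mrc1, and no marker of the 5 other classes of cell looked at did. Arrays of the same dose correlated at 0.953 to 0.997. The arrays fall into separate levels of 8 probe sets for the 5′ ends of poly-A control RNAs, which are added to a sample in processing. The mean of these was at most 1.12 on 11 arrays (those of 0 and 0.14 mM, with the first and the second replicate of both 0.35 and 0.7 mM). It was at least 1.75 on the other 14, which include every array from 1.4 mM up. Any difference between 0 mM and the 4 upper doses therefore lies across the spike levels as well, and the fit that takes the level as a term is given beside the results. The doses from 1.4 to 3.5 mM share 1 level and can be compared without it.

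These enzymes take reactive foreign or oxidised molecules through successive steps. Reductases and hydrolases convert quinones, carbonyls and epoxides into less reactive alcohols. Transferases couple them to glutathione or glucuronic acid, and pumps of the ABC family carry the conjugates out of the cell. Several of the genes, with mouse Nqo1 and the glutathione transferases as the textbook examples, are targets of NRF2. This transcription factor is released from its inhibitor KEAP1 when oxidants or electrophiles modify KEAP1 cysteines, and binds the antioxidant response element (ARE). Some are also controlled by the aryl hydrocarbon receptor through the xenobiotic response element (XRE).

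The promoters below are shown because Nqo1, Cbr3 and Akr1b8 had their highest mean signal at 1.4 or 2.1 mM and Cbr1 at 3.5 mM, and because Mgst1 and Ugdh, not called by the F test, hold the letters searched for. RefSeq windows on GRCm38.p6 were found for 9 of the 10 genes, and each sequence gives the 250 bases before a start site, 5′ to 3′ on the gene's strand. Capitals mark a match to the ARE letters TGACNNNGC on either strand.
Nqo1, chr8:107403206-107403455, minus strand: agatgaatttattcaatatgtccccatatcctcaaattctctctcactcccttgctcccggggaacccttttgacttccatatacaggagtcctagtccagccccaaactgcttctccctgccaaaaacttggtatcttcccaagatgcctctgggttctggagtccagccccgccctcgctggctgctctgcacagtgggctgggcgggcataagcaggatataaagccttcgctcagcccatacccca
Cbr3, chr16:93682969-93683218, plus strand: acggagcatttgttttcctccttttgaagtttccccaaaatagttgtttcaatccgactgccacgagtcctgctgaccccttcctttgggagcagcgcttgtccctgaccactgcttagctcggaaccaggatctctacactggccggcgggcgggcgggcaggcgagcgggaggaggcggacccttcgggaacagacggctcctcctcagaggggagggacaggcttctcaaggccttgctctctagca
Akr1b8, chr6:34353896-34354145, plus strand: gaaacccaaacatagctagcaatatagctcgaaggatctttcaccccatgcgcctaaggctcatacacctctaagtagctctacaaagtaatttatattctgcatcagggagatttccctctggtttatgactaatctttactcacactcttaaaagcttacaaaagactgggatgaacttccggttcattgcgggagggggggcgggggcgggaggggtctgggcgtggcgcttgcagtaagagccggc
Cbr1, chr16:93607587-93607836, plus strand: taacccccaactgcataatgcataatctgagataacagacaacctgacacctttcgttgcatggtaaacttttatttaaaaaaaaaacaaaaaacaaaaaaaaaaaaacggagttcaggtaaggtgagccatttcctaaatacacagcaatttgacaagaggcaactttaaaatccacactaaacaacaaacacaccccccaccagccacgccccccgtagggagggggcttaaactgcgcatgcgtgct
Mgst1, chr6:138140277-138140526, plus strand: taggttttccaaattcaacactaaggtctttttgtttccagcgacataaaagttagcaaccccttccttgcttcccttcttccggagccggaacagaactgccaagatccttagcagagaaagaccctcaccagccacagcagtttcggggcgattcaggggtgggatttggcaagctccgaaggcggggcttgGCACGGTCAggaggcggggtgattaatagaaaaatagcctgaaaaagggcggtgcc
Ugdh, chr5:65435843-65436092, minus strand: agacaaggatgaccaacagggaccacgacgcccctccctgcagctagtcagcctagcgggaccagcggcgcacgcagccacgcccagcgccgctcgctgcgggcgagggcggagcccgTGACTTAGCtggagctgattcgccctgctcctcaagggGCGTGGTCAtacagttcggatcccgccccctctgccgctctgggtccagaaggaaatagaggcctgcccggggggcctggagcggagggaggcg
Over all 32851 windows of this length, 10.2% hold the ARE letters. They were found in Ugdh, with 2 matches, and in the first of the Mgst1 windows, with 1. The windows of Nqo1, Cbr3, Akr1b8, Cbr1, Ephx1, Gstm1 and Gstp1 hold no match. The XRE letters GCGTG are in 28.2% of all windows and were found in Cbr1, Akr1b8, Gstm1, Gstp1 and Ugdh, where 1 of the 3 matches overlaps an ARE match. Matches describe these letters in these windows and nothing beyond them. Cbr1 and Cbr3 lie on chromosome 16 with 1 annotated gene, Gm5678, between them.

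Members were compared with limma's moderated test over 45037 probe sets, and a change was called at a Benjamini-Hochberg adjusted p under 0.05. An F test over the 7 doses against 0 mM called 6 of the 10 genes, Nqo1, Cbr1, Cbr3, Akr1b8, Ephx1 and Abcc1, against 24.7% of all probe sets. Gstm1, Gstp1, Mgst1 and Ugdh were not called. With the spike level as a term the same 6 genes were called, with adjusted p between 0.00131 for Nqo1 and 0.0346 for Ephx1. The share of all probe sets called in that fit was not counted.

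**Figure D1:**
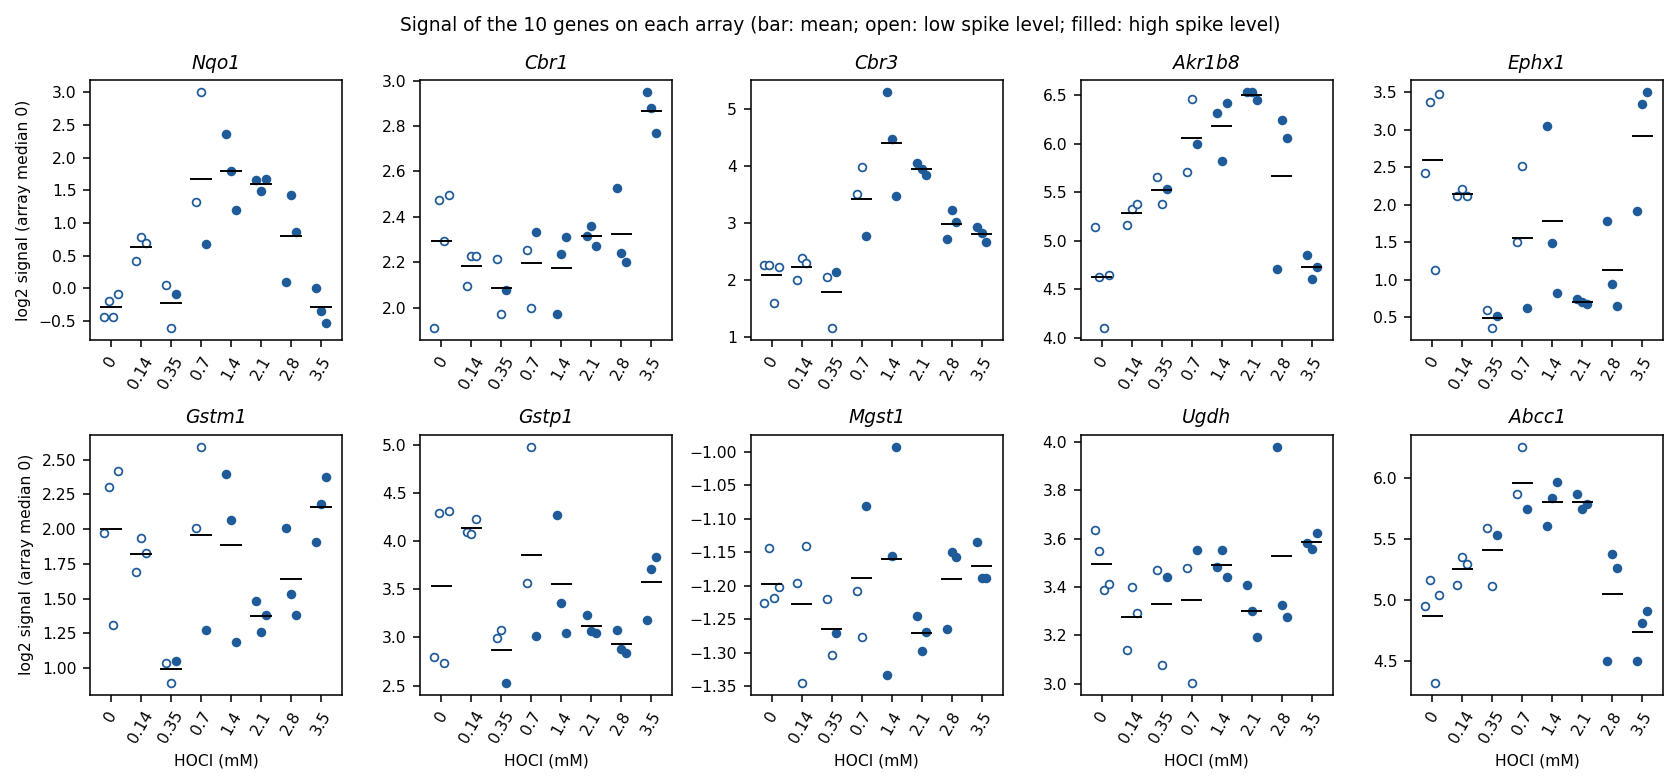
Log2 signal (array median 0) of the probe set that stands for each gene on each of the 25 arrays, by HOCl dose from 0 to 3.5 mM; each point is an array, the bar is the mean of the dose, and open and filled points are arrays of the low and high spike level. Nqo1, Cbr3, Akr1b8 and Abcc1 are highest between 0.7 and 2.1 mM, Cbr1 stands above 2.7 on the 3 arrays of 3.5 mM, and Ephx1 is below 0.8 on all arrays of 0.35 and 2.1 mM.

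Dose by dose against 0 mM, none of the 10 genes was called at 0.14 mM, where 0.00444% of probe sets were. At 0.35 mM Ephx1 and Gstm1 were called lower and no gene was called higher (6.43% of probe sets called, 1.71% higher and 4.72% lower). At 0.7 mM Nqo1, Akr1b8 and Abcc1 rose, where 0.12% of probe sets rose, 0.0133% fell and 0.133% were called in all. Nqo1, Cbr3, Akr1b8 and Abcc1 rose at 1.4 mM, where 4.39% of probe sets rose, 3.43% fell and 7.81% were called. The same 4 rose and Ephx1 fell at 2.1 mM (7.26% higher, 6.09% lower, 13.4% in all). At 2.8 mM 1 gene, Akr1b8, rose (5.64% higher, 6.26% lower, 11.9% in all), and at 3.5 mM 1 gene, Cbr1, rose (3.93% higher, 5.4% lower, 9.32% in all).

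The 7 comparisons share the 0 mM arrays. The median log2 change of the 10 genes was between -0.19 at 0.35 mM and 0.17 at 0.7 mM, beside medians of 0.02 to 0.08 over all probe sets at the 7 doses. Calls among the members went in both directions at 2.1 mM, and each gene is given on its own.

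**Figure D2:**
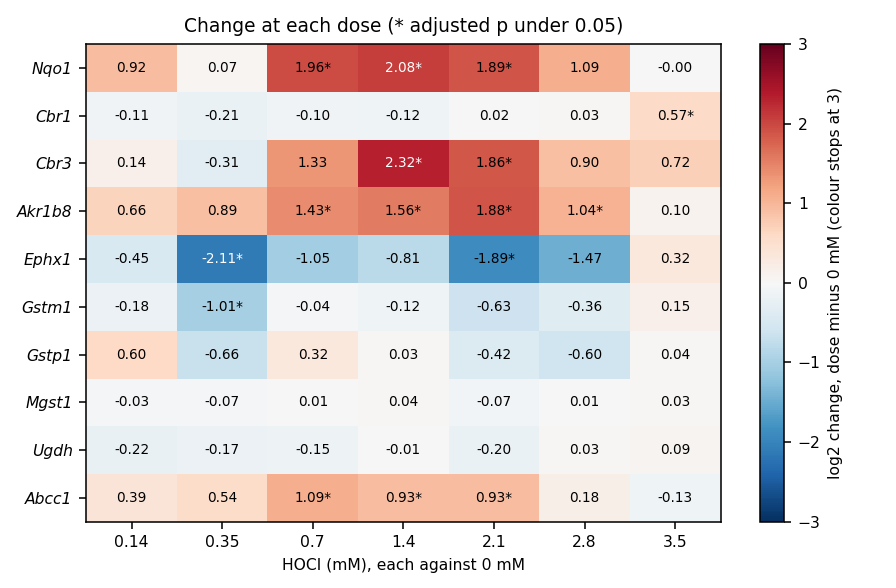
Log2 change of each gene at 7 HOCl doses (columns, mM), each minus 0 mM, with a star where limma's adjusted p was under 0.05; colour runs from lower (blue) to higher (red). Nqo1, Cbr3, Akr1b8 and Abcc1 carry stars at 1.4 and 2.1 mM, Cbr1 only at 3.5 mM, and Ephx1 at 0.35 and 2.1 mM.

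Nqo1 encodes the quinone reductase that turns quinones directly into hydroquinones. It was about 4-fold higher at 1.4 mM and was back at the untreated level at 3.5 mM. Its signal was 2.37, 1.80 and 1.20 on the arrays of 1.4 mM and 1.66, 1.48 and 1.67 on those of 2.1 mM, against -0.44, -0.20, -0.44 and -0.08 at 0 mM. All 6 treated arrays lie above all 4 at 0 mM. The log2 change was 2.08 ± 0.387 (SE) at 1.4 mM, 4.22-fold, with limma's adjusted p = 0.00383, and 1.89 at 2.1 mM, 3.72-fold, with adjusted p = 0.00329.

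The other doses give the shape of the Nqo1 response. At 0.14 mM the signals were 0.42, 0.78 and 0.69, above all 0 mM arrays, yet the change of 0.92 was not called (adjusted p = 0.524). At 0.35 mM they were 0.04, -0.62 and -0.09, which lie on both sides of the 0 mM arrays and overlap with them. The arrays of 0.7 mM were far apart at 1.32, 3.01 and 0.68, and the change of 1.96 (3.89-fold) had limma's adjusted p = 0.0462. Without replicate 2 of 0.7 mM it was 1.29 with adjusted p = 0.245. At 2.8 mM the signals were 0.10, 1.43 and 0.86 and the change of 1.09 missed the threshold (adjusted p = 0.0738). At 3.5 mM they were 0.01, -0.35 and -0.53, which overlap with 0 mM.

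Cbr3 encodes a carbonyl reductase that uses NADPH, a close relative of Cbr1. Its signal was 5.30, 4.48 and 3.47 at 1.4 mM and 4.06, 3.95 and 3.85 at 2.1 mM, against 2.26, 2.27, 1.61 and 2.23 at 0 mM. The rise at 1.4 mM, 2.32 ± 0.328 (SE) or 5.01-fold, was the largest log2 change among the 10 genes at any dose against 0 mM (limma, adjusted p = 0.000569). At 2.1 mM it was 1.86, or 3.64-fold (adjusted p = 0.00124). Lower doses show where the signals part from the untreated ones. They were 2.06, 1.16 and 2.14 at 0.35 mM and 3.51, 3.98 and 2.77 at 0.7 mM, and all 3 of the higher dose lie above all 4 arrays of 0 mM. The change at 0.7 mM, 1.33, was not called (adjusted p = 0.151). At 3.5 mM the signals, 2.93, 2.83 and 2.67, were still above each 0 mM array, and that change of 0.72 was not called either (adjusted p = 0.177).

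Akr1b8 encodes an aldo-keto reductase that reduces lipid aldehydes and other carbonyls. Its mean signal stepped up with each dose to 2.1 mM. It was 4.63 ± 0.43 at 0 mM (SD, n = 4), 5.29 at 0.14 mM, 5.52 at 0.35 mM, 6.06 at 0.7 mM, 6.19 at 1.4 mM and 6.51 at 2.1 mM (n = 3 each). At 2.1 mM the 3 arrays gave 6.53, 6.53 and 6.45, against 5.14, 4.63, 4.10 and 4.64 at 0 mM. The change was 1.88 ± 0.277 (SE), 3.68-fold, with limma's adjusted p = 0.000392.

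Akr1b8 was also called at 0.7 mM (1.43, 2.69-fold, adjusted p = 0.0417), at 1.4 mM (1.56, 2.94-fold, adjusted p = 0.00287) and at 2.8 mM (1.04, 2.06-fold, adjusted p = 0.0187). At 0.35 mM all 3 arrays lay above those of 0 mM, and the change of 0.89 just missed the threshold (adjusted p = 0.0578). The arrays of 2.8 mM were far apart. Replicate 1 was at 4.71, in the range of 0 mM, and replicates 2 and 3 were at 6.24 and 6.06. Leaving out replicate 2 or 3 of 2.8 mM removed that call (adjusted p = 0.144 and 0.117).

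Cbr1, the broad carbonyl reductase that also acts on quinones and prostaglandins, had a course of its own. Its signal stayed between 1.91 and 2.53 on all 22 arrays of 0 to 2.8 mM. At 3.5 mM it was 2.95, 2.88 and 2.77, against 1.91, 2.47, 2.29 and 2.50 at 0 mM, so that no array overlaps. The rise was small, 0.57 ± 0.127 (SE) or 1.49-fold, and was called by limma (adjusted p = 0.00668). It kept its call in each of the 25 fits that left out 1 array (adjusted p up to 0.0339). It was not called with only the arrays of those doses in the fit (adjusted p = 0.101).

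Ephx1, the microsomal epoxide hydrolase that opens epoxides to diols, was the only gene of the 10 to fall at more than 1 dose. At 0.35 mM its signal was 0.59, 0.35 and 0.51, and at 2.1 mM 0.75, 0.70 and 0.67, against 2.42, 3.37, 1.13 and 3.48 at 0 mM. Both doses lie below every 0 mM array, although the 0 mM arrays alone span more than 2 log2 units. The change was -2.11 ± 0.548 (SE) at 0.35 mM, 4.32-fold lower, and -1.89 at 2.1 mM, 3.72-fold lower, with limma's adjusted p = 0.0273 and 0.0263.

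Between and beyond these doses Ephx1 varied within a dose. At 0.7 mM it was 1.5, 2.52 and 0.63, and at 1.4 mM 3.04, 1.49 and 0.82, both overlapping with 0 mM. The arrays of 2.8 mM, at 1.79, 0.95 and 0.66, gave a change of -1.47 that was not called (adjusted p = 0.0886), and those of 3.5 mM were back at 1.92, 3.35 and 3.50. Of the 7 omissions of an array at 0 or 0.35 mM, 5 removed the call at 0.35 mM (adjusted p up to 0.104), and 5 of 7 likewise removed that at 2.1 mM (up to 0.0819). The 0 mM arrays involved were replicates 2 and 4 in both cases, together with each of the 3 treated arrays.

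Gstm1, a cytosolic glutathione transferase of the mu class, had its low point at the same dose. At 0.35 mM its signal was 1.04, 0.89 and 1.05, against 1.97, 2.30, 1.31 and 2.42 at 0 mM, with no overlap. The change was -1.01 ± 0.289 (SE), 2.01-fold lower (limma, adjusted p = 0.0426). At 2.1 mM the signals were 1.48, 1.26 and 1.38, and the change of -0.63 was not called (adjusted p = 0.161). The call at 0.35 mM was lost in 15 of the 25 fits that left out 1 array, 6 of them arrays of the doses compared, with adjusted p up to 0.147.

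The 4 Gstm1 probe sets did not move alike. The probe set 1448330_at gave -1.02 at 0.35 mM (adjusted p = 0.0472), close to the one that stands for the gene, 1416416_x_at. The other 2 were not called against 0 mM at any dose. Affymetrix ends the names of probe sets whose probes can match other transcripts with _x_at, and mu-class transferases are alike in sequence, so signal from other family members in these probe sets was not told apart.

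**Figure D3:**
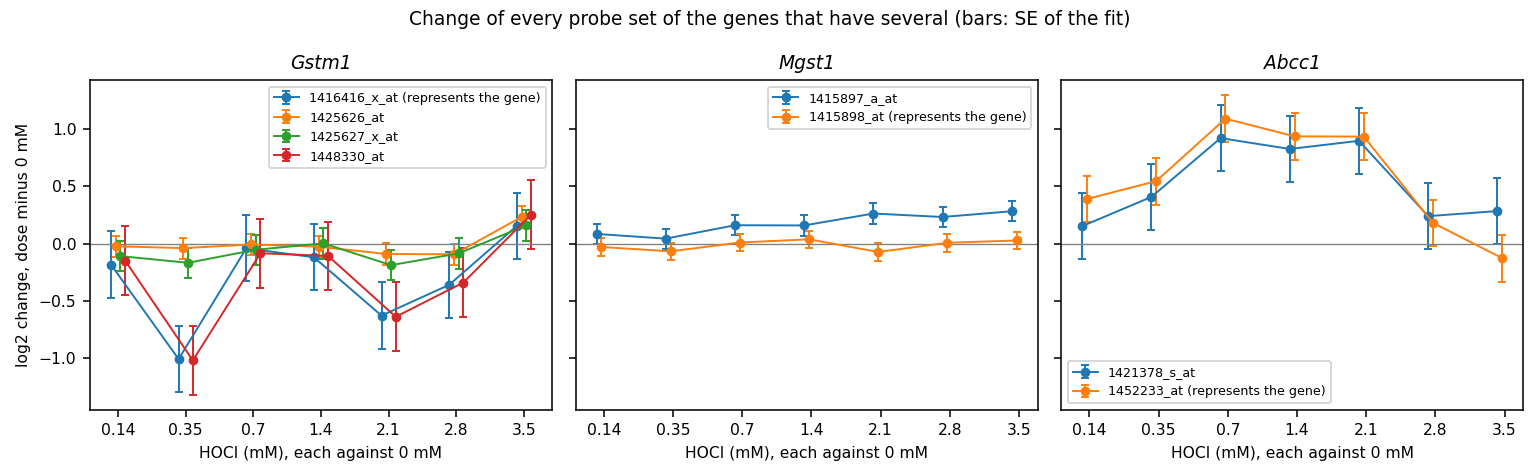
Log2 change against 0 mM at each of the 7 HOCl doses (mM) for all probe sets of Gstm1, Mgst1 and Abcc1, with bars of 1 SE of the limma fit. For Gstm1 1416416_x_at and 1448330_at reach about -1 at 0.35 mM while the other 2 stay near 0; both Abcc1 probe sets are above 0 from 0.14 to 2.1 mM; the Mgst1 probe sets stay between -0.1 and 0.3.

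Gstp1, the pi-class transferase, was not called at any dose, nor over all doses (F test, adjusted p = 0.214). Its untreated arrays were split, with 2.80 and 2.73 for replicates 1 and 3 and 4.29 and 4.31 for replicates 2 and 4. At 0.14 mM it was 4.09, 4.07 and 4.22, inside that range, and at 0.35 mM 2.99, 3.08 and 2.53. At 2.8 mM it was 3.08, 2.88 and 2.84, again within the span of the 0 mM arrays. The probe set is annotated to Gstp1 alone, and no probe set is annotated to its near copy Gstp2.

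Mgst1, a glutathione transferase of the endoplasmic reticulum and outer mitochondrial membrane, stayed below the array median on all 25 arrays, with signals from -1.34 to -0.99 on 1415898_at. Doses from 0.14 to 3.5 mM had means between -1.27 and -1.16, beside -1.20 ± 0.037 at 0 mM (SD, n = 4). Its other probe set, 1415897_a_at, was lower still and was called at 3.5 mM with a change of 0.28, 1.22-fold (limma, adjusted p = 0.0482), from signals of -1.47, -1.62 and -1.26 against -1.61, -1.76, -1.78 and -1.79 at 0 mM. The arrays overlap there.

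Ugdh makes UDP-glucuronic acid, the sugar donor for glucuronide conjugation, from UDP-glucose. Its dose means lay between 3.28 and 3.59, beside 3.50 ± 0.117 at 0 mM (SD, n = 4), and it was not called at any dose (F test, adjusted p = 0.521). The 3 arrays of 2.1 mM gave 3.41, 3.30 and 3.19, against 3.64, 3.55, 3.39 and 3.41 at 0 mM. A single array, replicate 1 of 2.8 mM, stood apart at 3.98, while the other two of that dose were at 3.32 and 3.28.

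Abcc1 encodes the multidrug resistance protein that exports glutathione conjugates. It was called higher at each dose from 0.7 to 2.1 mM. At 0.7 mM its signal was 5.87, 6.26 and 5.74, at 1.4 mM 5.61, 5.83 and 5.97 and at 2.1 mM 5.87, 5.74 and 5.79, against 4.95, 5.16, 4.32 and 5.04 at 0 mM. None of these 9 arrays overlaps with the untreated ones. The changes were 1.09, 0.93 and 0.93 (each ± 0.204 SE), or 2.13-, 1.91- and 1.91-fold, with limma's adjusted p = 0.0325, 0.00947 and 0.00522. At 2.8 and 3.5 mM the arrays overlapped with those of 0 mM and no change was called. The calls at 0.7 mM were the less stable ones: of the 7 omissions of an array of 0 or 0.7 mM, 4 removed that of Abcc1, 5 that of Akr1b8 and 5 that of Nqo1, while those of these genes at 1.4 and 2.1 mM were kept in each omission. The other Abcc1 probe set, 1421378_s_at, gave 0.90 at 2.1 mM (adjusted p = 0.0454) and was not called at another dose.

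Every call against 0 mM at 1.4 mM and above was lost when the spike level entered the fit as a term, in which only the arrays of 0.35 and 0.7 mM tell level and dose apart. At each of these doses replicate 3 alone is of the high level, so the size of the term rests on single arrays. For Nqo1 replicate 3 was at -0.09 at 0.35 mM, beside 0.04 and -0.62, and at 0.68 at 0.7 mM, beside 1.32 and 3.01. Estimates with the term therefore do not settle what the level adds. For 4 genes the estimates with the term were at least as large as without it: at 2.1 mM the log2 change was 2.54 for Nqo1 (adjusted p = 0.109), 2.08 for Cbr3 (0.138), 1.91 for Akr1b8 (0.111) and 1.01 for Abcc1 (0.238). That of Ephx1 was -1.22 at 2.1 mM (0.567), and that of Cbr1 at 3.5 mM was 0.48 (0.154). At 0.7 mM Nqo1 stayed called with the term (2.17, adjusted p = 0.0368), while Akr1b8 (0.0751) and Abcc1 (0.059) did not, nor at 0.35 mM Ephx1 (0.0549) and Gstm1 (0.0839). On the arrays of the low level alone none of these 5 calls was kept, with log2 changes of 2.46 for Nqo1, 1.46 for Akr1b8, 1.20 for Abcc1, -2.13 for Ephx1 and -1.03 for Gstm1.

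Up to 2.8 mM no step between neighbouring doses gave a call. None of the 10 genes was called at 0.35 against 0.14 mM (3.37% of probe sets called), nor at 0.7 against 0.35 mM, 1.4 against 0.7 mM or 2.1 against 1.4 mM. In those 3 steps limma called 0 probe sets at all. Of the 45037 tested, 2990, 4025 and 1343 had an unadjusted p under 0.05. A share of 0.05 would do so without any change. At 2.8 against 2.1 mM again none was called (0.0244% of probe sets called). At 3.5 against 2.8 mM Cbr1 rose by 0.54 (adjusted p = 0.0127) and Akr1b8 fell by 0.94 (adjusted p = 0.045), where 11.2% of probe sets were called, 5.59% higher and 5.66% lower. The fall of Akr1b8 was lost in 15 of 25 omissions, among them each of the 3.5 mM arrays, and the rise of Cbr1 in 2 of the 6 omissions of an array of these doses (adjusted p up to 0.0794).

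The doses of 2.1 and 3.5 mM, a comparison added after the values had been seen, lie in the same spike level. Of the 10 genes 6 differed, against 17% of all probe sets, 7.66% higher and 9.38% lower. Nqo1, Cbr3, Akr1b8 and Abcc1 were lower at 3.5 mM by limma, and Cbr1 and Ephx1 were higher. Nqo1 was at 0.01, -0.35 and -0.53 on the arrays of 3.5 mM, against 1.66, 1.48 and 1.67 at 2.1 mM, a change of -1.89 ± 0.414 (SE), 3.72-fold lower (adjusted p = 0.00331). Akr1b8 was at 4.86, 4.61 and 4.73 at 3.5 mM, against 6.53, 6.53 and 6.45 at 2.1 mM, a change of -1.77, 3.42-fold lower (adjusted p = 0.000406).

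The other members called in that comparison had no overlap between the doses either. Gstm1, Mgst1 and Ugdh, not called there, had none as well, so this does not set the called members apart. How many of all probe sets have no overlap was not counted. Abcc1 was at 4.50, 4.81 and 4.91 at 3.5 mM, against 5.87, 5.74 and 5.79 at 2.1 mM, 2.08-fold lower (adjusted p = 0.00215). Cbr3 was 2.21-fold lower (adjusted p = 0.0282), a call that 5 of the 6 omissions of an array of these doses removed (adjusted p up to 0.0947). Ephx1 was 4.66-fold higher at 3.5 mM, with a log2 change of 2.22 ± 0.586 (SE) and adjusted p = 0.0119. That call was lost without replicate 2 or 3 of 3.5 mM (0.0563 and 0.0658). Cbr1 was 1.46-fold higher (adjusted p = 0.00768). All 6 were called with the spike level as a term too, but that term cannot change these estimates, as both doses lie in the same level.

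Pairs of members that do related work were compared on the same array, so that shifts of equal size in both genes cancel. All 12 arrays of 1.4 to 3.5 mM are of the high spike level and all 4 of 0 mM of the low one. A shift with the level that differs between the genes does not cancel, and the pairs were not tested with the level as a term. The difference Cbr3 minus Cbr1 averaged 1.12 ± 1.05 over the 12 arrays of 1.4 to 3.5 mM and -0.20 ± 0.43 over the 4 of 0 mM (SD). Its mean was thus 1.32 higher over the arrays of 1.4 to 3.5 mM pooled (exact permutation test, two-sided, p = 0.0154, 0.0462 after adjustment over 3 pairs). The pairs were chosen with earlier results of these data known. By dose the mean difference was 2.24 at 1.4 mM, 1.64 at 2.1 mM, 0.67 at 2.8 mM and -0.06 at 3.5 mM. That of 3.5 mM lies within the range of the 0 mM arrays, -0.69 to 0.35. With the 9 arrays of 2.1 to 3.5 mM alone the rise over 0 mM was 0.95 (adjusted p = 0.118). With 1 array left out, 11 of 16 omissions moved the adjusted p past the threshold, up to 0.132.

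Nqo1 minus Ephx1 averaged -0.66 ± 1.77 on the same 12 arrays and -2.89 ± 0.94 at 0 mM (SD). The difference of 2.23 did not pass after adjustment (exact permutation, p = 0.0418, adjusted p = 0.0626). It was 0.90 at 2.1 mM and -3.21 at 3.5 mM, so that the doses pooled here lie on both sides of the untreated mean. Gstp1 minus Gstm1 was 1.53 ± 0.26 on the 12 arrays of 1.4 to 3.5 mM and 1.53 ± 0.53 at 0 mM (SD), a difference of 0.003 (adjusted p = 0.968). Its means at the lower doses, which that test leaves out, were 2.31 at 0.14 mM, 1.87 at 0.35 mM and 1.89 at 0.7 mM, and those of the upper doses were 1.67 at 1.4 mM, 1.74 at 2.1 mM, 1.29 at 2.8 mM and 1.42 at 3.5 mM. The 3 arrays of 0.14 mM, at 2.14 to 2.40, lie above all 4 of 0 mM, at 0.82 to 1.98, and this difference was not tested.

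**Figure D4:**
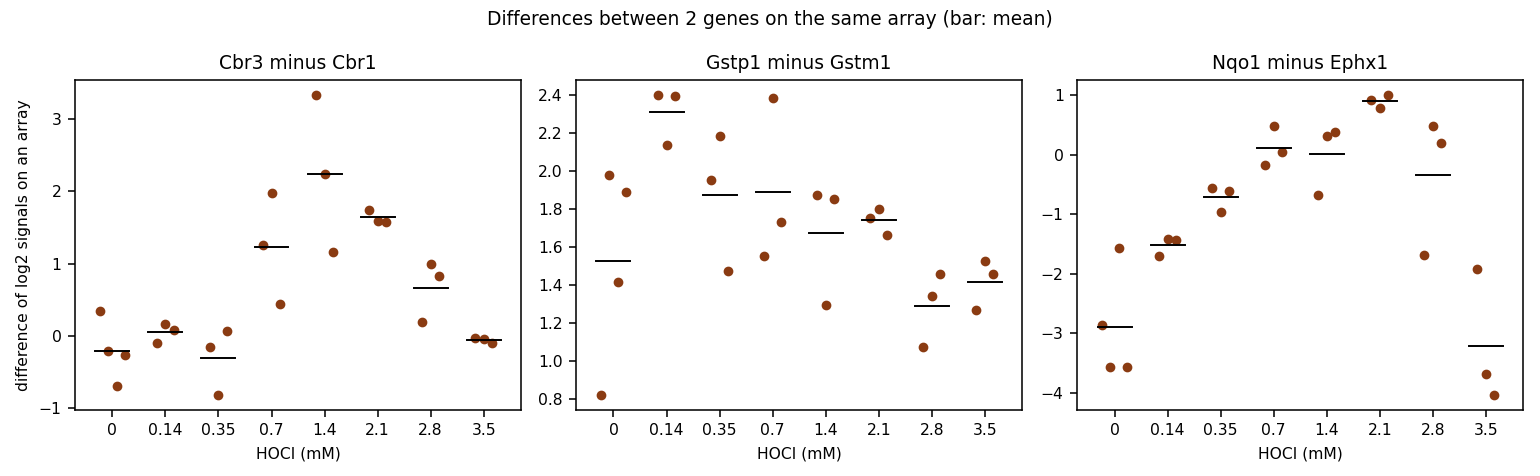
Difference between the log2 signals of 2 genes on the same array, by HOCl dose (mM); points are arrays and bars dose means. Cbr3 minus Cbr1 is highest at 1.4 mM, Nqo1 minus Ephx1 is highest at 2.1 mM and drops at 3.5 mM to a mean of -3.21, and Gstp1 minus Gstm1 stays between 0.8 and 2.4.

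Correlations across the 25 arrays, which share their doses and spike levels, are given here as a description. They hold differences between arrays of the same dose as well as differences between doses. Nqo1, Cbr3, Akr1b8 and Abcc1 correlated with each other at Pearson r of 0.59 (Cbr3 and Abcc1) to 0.87 (Akr1b8 and Abcc1). Ephx1 and Gstm1 correlated at 0.90, Gstm1 and Gstp1 at 0.77, and Ephx1 and Gstp1 at 0.75. Ephx1 and Gstm1 also varied together within a dose. On the 0 mM arrays they were at 2.42, 3.37, 1.13 and 3.48 and at 1.97, 2.30, 1.31 and 2.42. Gstm1 and Gstp1 were not called over the doses (F test, adjusted p = 0.0748 and 0.214). Cbr1 correlated at -0.46 with Akr1b8 and at -0.05 with Cbr3.

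The genes of the whole array whose signals followed the 3 most dose-dependent members most closely over the 25 arrays were as follows. For Cbr3 they were Smyd4 (r = 0.91), Tbc1d23 (0.90) and Slc48a1 (0.90), the last a haem transporter. Akr1b8 was followed by Rnf128 (0.93), Gclm (0.92) and Slc11a1 (0.92). Nqo1 was followed by Slc40a1 (0.91), the iron exporter ferroportin, Slc48a1 (0.88) and Treml4 (0.88).

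Other genes of the same reactions were read from lists of relatives. Their changes against 0 mM at 1.4 mM and above lie across the spike levels, and no fit with the level as a term is given for them. Among 19 measured other glutathione transferases the F test called 5, namely Mgst2, Gsta2, Mgst3, Gstz1 and Gstt3, a share near the 24.7% of all probe sets. Gsta2, an alpha-class transferase, rose by 1.75, 2.33 and 2.41 at 1.4, 2.1 and 2.8 mM (limma, adjusted p = 0.0238, 0.00248 and 0.00219). Its mean signal was 1.11 ± 0.05 at 2.1 mM (SD, n = 3), against -1.22 ± 0.22 at 0 mM (n = 4). Mgst2, a microsomal relative of Mgst1 that can make leukotriene C4, rose at 0.7, 1.4, 2.1 and 3.5 mM, by 0.89 at 2.1 mM (adjusted p = 0.000684). Mgst3 fell by 1.83 at 0.35 mM and by 1.52 at 2.1 mM (adjusted p = 0.0117 and 0.0135). Gstz1 and Gstt3 were called in no single dose, and Gstm7 (0.45 at 0.35 mM, adjusted p = 0.0476) and Gstt2 (0.55 at 3.5 mM, 0.022) each at 1.

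Other carbonyl, quinone and aldehyde enzymes gave 13 of 25 measured by the F test, against 24.7% of all probe sets. At 2.1 mM 2 rose and 7 fell, where 7.26% of all probe sets rose and 6.09% fell. Ptgr1, the prostaglandin reductase, rose by 1.27 at 2.1 mM (adjusted p = 0.000239), with 1.03 at 1.4 mM and 0.71 at 2.8 mM, and Akr1a1, an aldehyde reductase, by 0.41 (0.000987). Dcxr, which reduces dicarbonyls and xylulose, fell by 1.35 at 0.35 mM, 1.04 at 1.4 mM, 1.46 at 2.1 mM and 1.12 at 2.8 mM. Aldh2, the mitochondrial aldehyde dehydrogenase, fell at the same doses, by 1.17 at 0.35 mM (adjusted p = 0.016), 0.96 at 1.4 mM, 1.27 at 2.1 mM (0.00411) and 1.11 at 2.8 mM (0.0107). Akr1b10 fell by 0.77 at 0.35 mM and by 0.57 at 2.1 mM and rose by 0.55 at 3.5 mM (adjusted p = 0.00759 at 0.35 mM and 0.0221 at 3.5 mM). Akr7a5 was called lower at 1.4 and 2.1 mM, with mean signals of 3.75 and 3.67 against 4.16 at 0 mM. Its mean of 4.51 at 3.5 mM was not called. At 3.5 mM 4 rose (Cbr4, Akr1a1, Akr1b10 and Akr1c14) and none fell, where 3.93% of all probe sets rose and 5.4% fell. The list's median change was -0.20 at 2.1 mM and 0.23 at 3.5 mM, beside 0.03 and 0.08 over all probe sets.

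Of 11 measured other efflux transporters the F test called 3, against 24.7% of all probe sets, namely Abcc4 (adjusted p = 0.00386), Abcc5 (0.0335) and Abcc3 (0.0446). Abcc4 and Abcc3 were called at no single dose. Abcg2 rose at 2.1 mM (0.53, adjusted p = 0.0477) and Abcc5 at 3.5 mM (0.43, 0.00591). None was called lower at any dose, where at most 6.26% of all probe sets were (at 2.8 mM). Among 15 measured genes of glucuronide, sulfate, methyl and acetyl conjugation the F test called 2, Papss1 and Nat2, against 24.7% of all probe sets. Papss1, which makes the sulfate donor, fell by 0.76 at 2.1 mM and by 0.69 at 2.8 mM (adjusted p = 0.019 and 0.0336), and Nat1 fell by 0.39 at 2.1 mM (0.0483). No gene of this list was called higher at any dose, where at most 7.26% of all probe sets were (at 2.1 mM). Of 21 measured genes of the aryl hydrocarbon receptor and cytochrome P450 reactions the F test called 5, namely Cyb5a, Cyb5b, Ahrr, Tiparp and Cyp20a1, again beside 24.7% of all probe sets. Cyb5a, an electron donor to P450 enzymes, rose at 5 doses, by 1.41 at 0.7 mM and 1.33 at 2.1 mM (adjusted p = 0.00436 and 0.000622). Cyb5b rose at 3 doses, by 1.12 at 2.1 mM (0.00706). Cyp20a1, a P450, rose by 0.86 at 1.4 mM and by 0.75 at 2.1 mM (0.0247 and 0.032), and Arnt fell by 0.73 at 0.35 mM (0.0352).

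**Figure D5:**
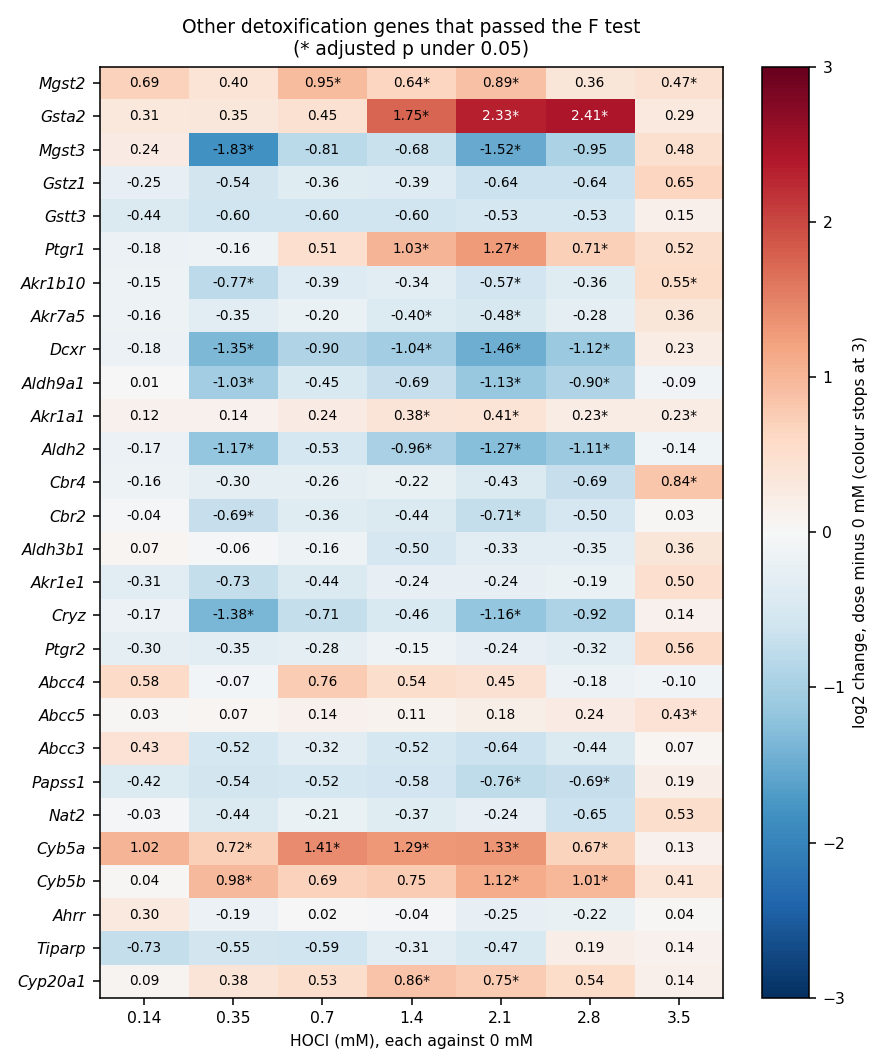
Log2 change against 0 mM at each HOCl dose (mM) for the other glutathione transferases, carbonyl and aldehyde enzymes, efflux transporters, conjugation genes and P450 genes that passed the F test, with a star where the adjusted p at that dose was under 0.05. Gsta2, Ptgr1 and Cyb5a are raised in mid range, and Mgst3, Dcxr, Aldh2 and Cryz are lowered at 0.35 and 2.1 mM.

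Genes known for strong NRF2 regulation were set beside the members. Here too the changes at 1.4 mM and above lie across the spike levels, without a fit that takes the level as a term. Hmox1, Gclm, Srxn1, Slc7a11 and Txnrd1 rose at each dose from 0.35 to 2.8 mM, while Nfe2l2 and Keap1 were not called. At 2.1 mM the changes were 3.51 for Hmox1 (haem oxygenase), 3.67 for Gclm (glutathione synthesis), 4.21 for Srxn1 (sulfiredoxin), 5.19 for Slc7a11 (cystine import) and 1.37 for Txnrd1 (thioredoxin reductase). Those of the members that rose at 2.1 mM lie between 0.93 for Abcc1 and 1.89 for Nqo1. At 0.35 mM these 5 genes were called higher and no member was, although Akr1b8, up by 0.89, just missed the threshold (limma, adjusted p = 0.0578). At 3.5 mM none of these 5 genes was called higher and Txnrd1 fell by 0.86 (adjusted p = 0.0103). Of the control genes Actb was not called, and Tbp rose at 1.4, 2.1 and 3.5 mM, by 0.64, 0.53 and 0.59.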

How the data were processed

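RNA of RAW 264.7 cells was hybridized to 25 Affymetrix mouse arrays. Per the submitters' processing notes the authors used RMA (version not given in the sources used here), and per the labels intensities were read with Array Assist. The deposited values are log2 signals with every array median at 0; base 2 was inferred from their span, and every fold rests on it. Control probe sets (64 of 45101) were set aside. A mean per dose was fitted with limma 3.58.1 in R 4.3.3 to all 25 arrays (17 residual and 2.99 prior degrees of freedom), adjusted by Benjamini and Hochberg over 45037 probe sets. The precision is limited by 3 or 4 arrays a dose. Steps were tested on simulated data. The members, lists and tests were chosen with earlier results of these data known. Named genes were the members, up to 4 genes a list by F test p, called genes where 5 or fewer were called, and fixed NRF2 and control genes; Akr1a1 and Aldh2 were named after their values were seen. Alternatives were other normalization, filters, variance prior, array weights, replicate block, spike level, probe set choice and omission of each array. Among 84 same-numbered pairs of arrays 19 had residual correlations above 0.1 (median -0.0256), so replicate numbers were not taken as pairs.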

Additional observations from a re-analysis of the deposited data

Results flagged for a closer look

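In the 15 probe sets, 2 single arrays of 0 mM stood apart from the other 3 by more than Dixon's test allows at its 95% level; chance alone gives about 1 such flag in 20 groups. The first is replicate 3 for Cbr3, at 1.61, while the others were at 2.26, 2.27 and 2.23. Its gap was 0.938 of the range. The rises of Cbr3 at 1.4 and 2.1 mM were called without it too. Replicate 3 was also the lowest 0 mM array for Akr1b8, Ephx1, Gstp1, Ugdh and all probe sets of Gstm1 and Abcc1, but not for Nqo1, Cbr1 or Mgst1. Without it the change at 2.1 mM was 0.75 for Abcc1 and -2.39 for Ephx1, beside 0.93 and -1.89 with it. The second is replicate 1 for Mgst1 on 1415897_a_at, at -1.61, while the others were at -1.76, -1.78 and -1.79, a gap of 0.832 of the range. The signal of that probe set was below the array median on all 25 arrays.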

How the results depend on the processing

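The counts of members called against 0 mM were 0, 2, 3, 4, 5, 1 and 1 from 0.14 to 3.5 mM. Those at 1.4 and 2.1 mM stayed within 1.5 times under all alternatives except the spike level as a term, which gave 0 at 0.35 mM, 1 at 0.7 mM and 0 at each of 1.4, 2.1, 2.8 and 3.5 mM. With the low spike level only, 0 were called at 0.35 and at 0.7 mM. Array weights gave 4 at 0.14 mM, 6 at 0.35 mM, 5 at 0.7 mM and 6 at 2.8 mM, and in the steps 3 at 0.35 against 0.14 mM, 3 at 0.7 against 0.35 mM, 2 at 2.8 against 2.1 mM and 6 at 3.5 against 2.8 mM. Quantile normalization gave 1 at 0.35 mM, 0 at 0.7 mM and 1 at 3.5 against 2.8 mM. With only the 2 doses compared in the fit, 0 were called at 0.35, 0.7 and 3.5 mM and at 3.5 against 2.8 mM, and 4 at 0.35 against 0.14 mM. The mean of a gene's probe sets gave 1 at 0.35 mM, leaving out dim probe sets 2 at 2.8 mM, and the probe set of largest variance 2 at 3.5 mM. The cause of these differences was not tested. The share of all probe sets called was counted for the main fit only, not for these alternatives, the replicate block or the omissions. The counts below and above thus show how the calls depend on the fit and are not a result about the members.

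With the replicate block 0 members were called at 0.35, 0.7 and 2.8 mM, 4 at 1.4 and at 2.1 mM, 1 at 3.5 mM, 6 at 3.5 against 2.1 mM and 6 over the 7 doses. The numbers did not pair the arrays: 4 of 24 arrays correlated best with their own number.

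Leaving out each array in turn gave 0 to 3 members at 0.35 mM, 0 to 3 at 0.7 mM, 4 to 4 at 1.4 mM, 4 to 6 at 2.1 mM, 0 to 2 at 2.8 mM, 0 to 2 at 0.7 against 0.35 mM, 0 to 4 at 3.5 against 2.8 mM and 4 to 6 at 3.5 against 2.1 mM. None was left at 0.35 mM without replicate 2 or 4 of 0 mM or any array of 0.35 mM, at 0.7 mM without replicate 4 of 0 mM, 1 or 2 of 0.7 mM, or 2 or 3 of 0.14 or 2.1 mM, and at 2.8 mM or 3.5 against 2.8 mM without replicate 2 or 3 of 2.8 mM. The difference Cbr3 minus Cbr1 ran from 1.124 to 1.509 and kept its call in 5 of 16 omissions, Gstp1 minus Gstm1 from -0.2324 to 0.154, and Nqo1 minus Ephx1 from 2.002 to 2.669, which passed the threshold without replicate 2 or 3 of 3.5 mM. On the 9 arrays of 2.1 to 3.5 mM Cbr3 minus Cbr1 was 0.9516. Gstp1 minus Gstm1, not called in any setting, changed sign with quantile normalization (-0.09419), the probe set of largest variance (-0.0269), the mean of the probe sets (-0.1178) and those 9 arrays (-0.04492). Changes not called in the report turned sign for Ugdh at 0.7 mM (-0.2544 to 0.01928 over the omissions) and, with the spike term, for Gstp1 at 2.1 mM (0.4708) and 2.8 mM (0.2903) and Gstm1 at 2.8 mM (0.1122). These last 3 were called as falls with array weights (adjusted p = 0.001615, 0.001442 and 0.005253 by limma). The number of arrays, 3 or 4 a dose, limits the precision.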
